A study of Mus musculus with 40 samples.

Results

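Blood clotting and its removal are usually pictured as the work of plasma proteins from the liver, yet many proteins that start, brake and dissolve a clot at a vessel wall are made by local cells. The 10 genes described here act at these steps: *F3*, *F5*, *F10*, *Tfpi*, *Thbd*, *Procr*, *Plat*, *Plau*, *Plaur* and *Fgl2*. Factors V and X among them are plasma proteins made mainly by the liver, and their genes were followed for what the eye tissue itself held. The genes were taken by symbol and are 10 of the 54307 genes in the deposited table. All 10 were matched to a single row, and all 10 passed the filter on low values in every comparison.

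The RNA came from 20 mice with laser-induced choroidal neovascularization (CNV), in which laser burns break the membrane under the retina and new vessels grow from the choroid. Every mouse was on a C57BL/6J background, carried floxed *Tgfbr2* alleles (*Tgfbr2* fl/fl), received tamoxifen eye drops from 6 to 7 weeks of age, was given 6 burns per eye and was killed at day 3. *Tgfbr2*ΔEC mice also carried a heterozygous Cdh5-CreERT2 allele, which is active in endothelial cells, and controls were littermates without Cre. PLX5622 is an inhibitor of the receptor CSF1R that depletes mononuclear phagocytes, and it was given in the food from the first tamoxifen drop to the end. There were 5 mice each of control – PLX (mice 1 to 5), *Tgfbr2*ΔEC – PLX (6 to 10), control + PLX (11 to 15) and *Tgfbr2*ΔEC + PLX (16 to 20), of both sexes. The central choroid with the lesions and the retina of each mouse gave 40 libraries. There was no tissue without laser burns, so no value here shows what the lesions changed. Values are normalized counts, the read counts per gene after the scaling of the libraries to each other.

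Tissue factor, the product of *F3*, binds factor VII at the surface of a cell and thereby starts clotting, and factor X with its cofactor factor V then turns prothrombin into thrombin. Thrombomodulin and the endothelial protein C receptor, the products of *Thbd* and *Procr*, turn thrombin towards the activation of the anticoagulant protein C. Clots are dissolved by plasmin, which is cut from plasminogen by tissue-type or urokinase-type plasminogen activator. In a CNV lesion the same proteases are known for work outside clots, since urokinase on its receptor digests matrix around moving cells.

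A library held about 21628874 to 28331348 reads in choroid and 20940403 to 30421581 in retina, so that 3 reads correspond to about 2.24 to 3.56 normalized counts. The defining markers matched the labels: all 10 photoreceptor markers were lower, and all 6 markers of the retinal pigment epithelium higher, in choroid than in retina. Photoreceptor RNA was nevertheless present in the choroids, where the sum of those 10 markers was 0.296% to 10.3% of the median retina. RNA of pigment epithelium was likewise present in the retinas. The sum of its 6 markers was 1559 to 8505 normalized counts there and 151536 to 349316 in the choroids. The part of such RNA in the low retinal values of the 10 genes was not tested. With PLX, 15 of 16 markers of mononuclear phagocytes fell in choroid and 16 of 16 in retina. *Tgfbr2* itself, deleted only in endothelium, had 8729 to 11303 normalized counts in the *Tgfbr2*ΔEC – PLX choroids and 9836 to 10849 in control – PLX, so that whole tissue did not show the deletion.

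The clearest pattern was between the tissues: the choroid held more RNA of all 10 genes than the retina of the same mice, and for 9 of the 10 every choroid lay above every retina, as for 18.6% of the 24317 genes tested. In limma with Benjamini-Hochberg adjustment all 10 were higher in choroid, where 40.8% of all genes were, with a median log2 difference of 4.99 over the 10 against -0.012 over all genes. That background is high because choroid and retina differ in most genes. The 10 genes were chosen with earlier results of these data known, so their contrast with all genes is a description. *Fgl2*, *Plaur*, *Plau*, *Procr* and *Thbd* stood farthest apart and *F5* least.

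**Figure D1:**
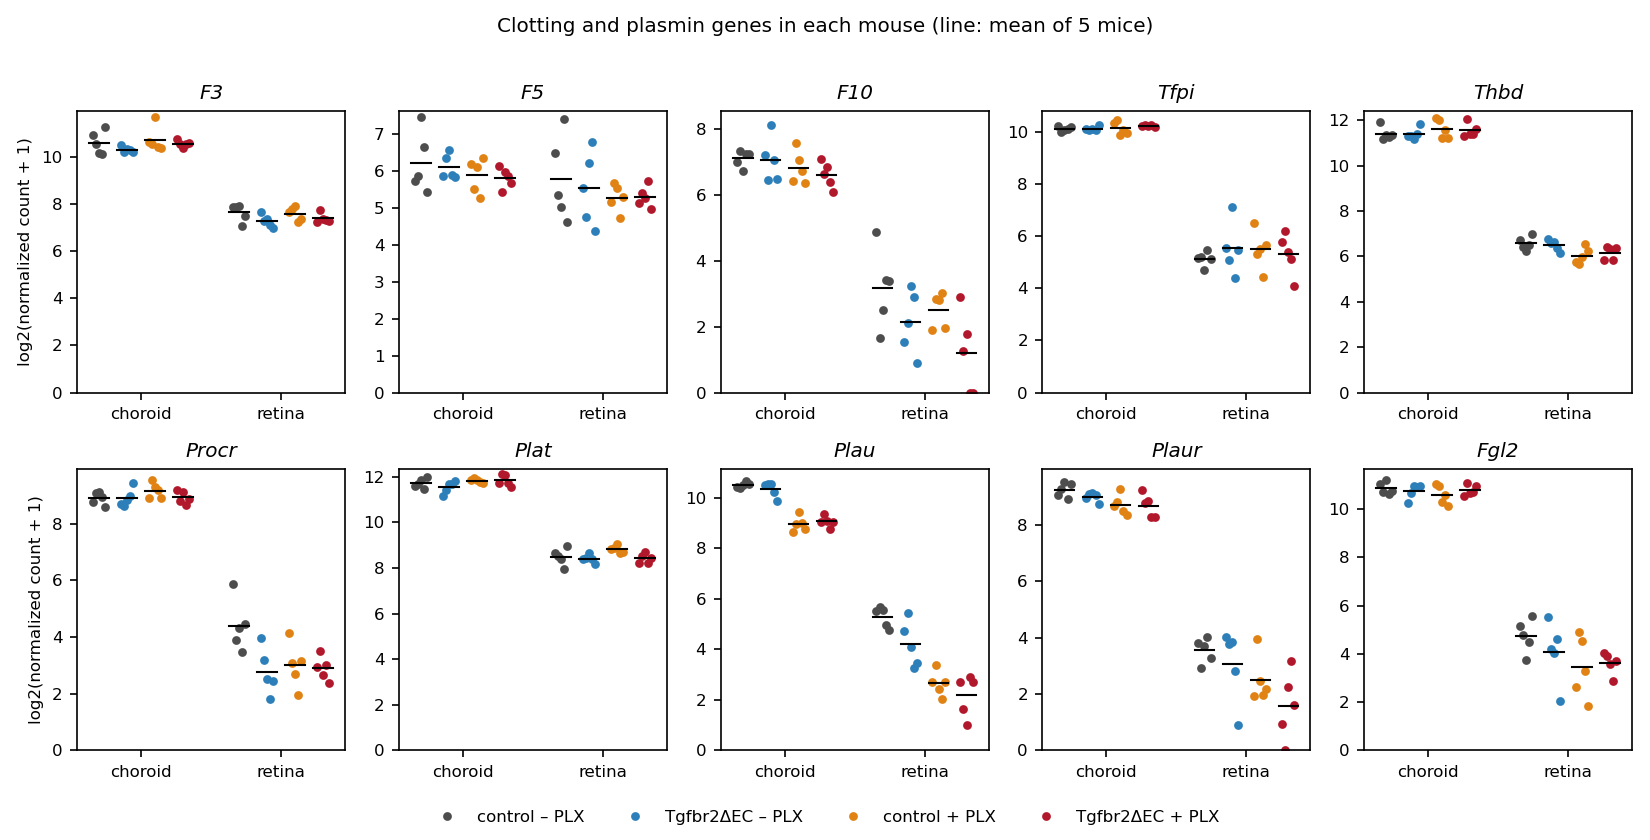
Normalized counts of the 10 genes on a log2(value + 1) scale in every mouse, with choroid on the left and retina on the right of each panel; points are mice, colours are the 4 groups and lines are means of 5 mice. Choroid lies above retina without overlap for every gene except F5, and only Plau separates the diets in choroid.

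Compared per length, *Plat* and *F3* led in both tissues. Levels per length are normalized counts per kilobase (kb) of the longest annotated transcript, given as the mean ± SD over 20 mice. In choroid they were 855 ± 134 for *Plat*, 713 ± 239 for *F3*, 578 ± 136 for *Thbd*, 461 ± 87.9 for *Fgl2* and 386 ± 189 for *Plau*. They were 319.5 ± 62.4 for *Procr*, 288 ± 27.4 for *Tfpi* and 247 ± 61.0 for *Plaur*, and far lower for *F10* and *F5*, at 46.4 ± 17.8 and 9.04 ± 4.06. *Plat* was thus higher per length than 94.3% of the genes measured in choroid, and *F5* higher than 30.3%.

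Not every step in this order was firm. *Plat* lay above *F3* in 16 of 20 choroids, *F3* above *Thbd* in 16 and *Thbd* above *Fgl2* in 18, whereas *Procr* lay above *Tfpi* in 12, so that this last pair did not differ beyond its spread at this length. With the union of all exons as length *Procr* was above *Tfpi* in 19, but *Plat* above *F3* in 13, *Thbd* above *Fgl2* in 16 and *Fgl2* above *Plau* in 10, against 13 with the longest transcript. The place of *Plau* was set by the diet described further on: it held 560 ± 78.3 per kb in the 10 choroids without PLX5622 and 212 ± 37.7 in the 10 with it, and lay above *Procr* in 9 of the former and 0 of the latter. *Plaur* was above *F10*, and *F10* above *F5*, in all 20. In retina *Plat* at 93.5 ± 18.5 and *F3* at 82.7 ± 17.5 per kb were the only genes above more than 50% of all genes there (59.9% and 57.8%), and *F3* was above *Thbd*, at 15.8 ± 3.90, in all 20 retinas. The other 7 had means of 2.03 to 11.5 per kb, and their order was loose.

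**Figure D2:**
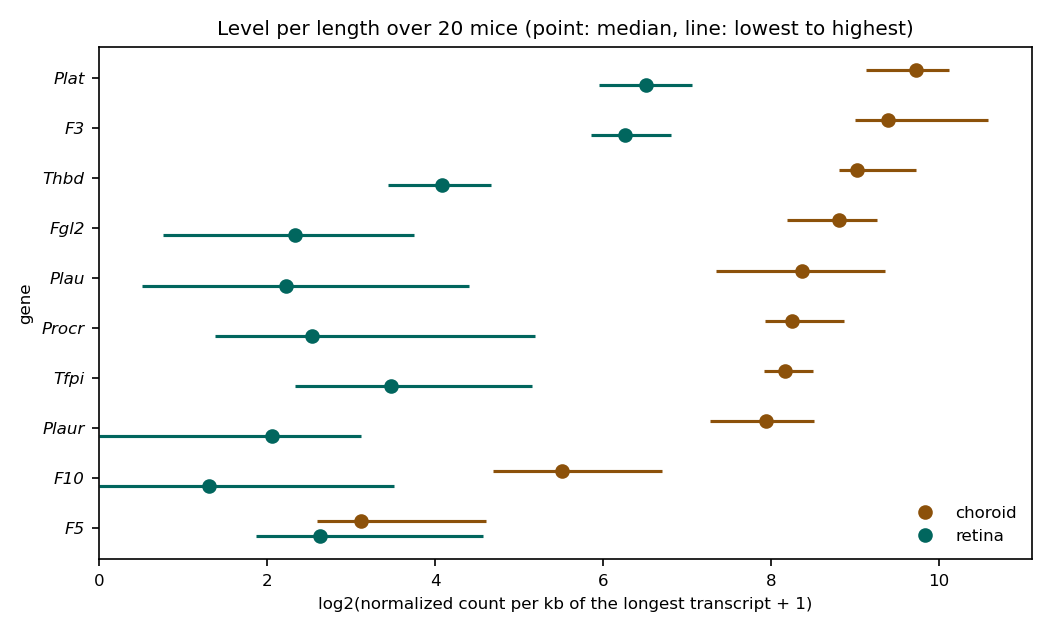
Level of each gene per kb of its longest transcript, on a log2(value + 1) axis, in choroid and retina; points are medians and lines run from the lowest to the highest of 20 mice. Plat and F3 lead in both tissues, and F5 is the one gene whose ranges overlap.

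The DNA before the start of an initiating and a plasmin-side member is shown as a description. RefSeq promoter windows were at hand for 7 of the 10 genes, *F3*, *F5*, *F10*, *Tfpi*, *Procr*, *Plaur* and *Fgl2*, and were not matched for *Thbd*, *Plat* and *Plau*. The 250 bases before the annotated start are given 5′ to 3′ in build GRCm38.p6, on the plus strand at chr3:121723287-121723536 for *F3* and at chr7:24462233-24462482 for *Plaur*, and capitals mark the letters TGANTCA, the form bound by AP-1 factors.
F3: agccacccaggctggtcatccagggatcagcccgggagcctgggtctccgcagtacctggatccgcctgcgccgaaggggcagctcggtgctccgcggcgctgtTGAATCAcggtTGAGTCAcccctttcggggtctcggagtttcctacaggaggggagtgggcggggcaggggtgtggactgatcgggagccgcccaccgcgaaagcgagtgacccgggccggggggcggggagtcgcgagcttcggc
Plaur: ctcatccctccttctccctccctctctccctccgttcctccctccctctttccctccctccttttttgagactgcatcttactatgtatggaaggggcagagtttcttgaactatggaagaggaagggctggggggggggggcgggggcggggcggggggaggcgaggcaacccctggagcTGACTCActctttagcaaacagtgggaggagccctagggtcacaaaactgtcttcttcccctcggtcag

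Read on both strands, TGANTCA stood in the windows of 4 of these 7 genes, *F3*, *Procr*, *Plaur* and *Fgl2*, and in 6.75% of all 32851 windows of that length. The GC box GGGCGG stood in those of 5 genes and in 32.7% of all windows. GAGGAA, a core bound by PU.1 in myeloid cells, was in those of *Tfpi* and *Plaur* and in 23.3% of all, and TATAAA was in that of *Tfpi* and in 12.4% of all. The motifs were chosen after these sequences were seen, so these shares are a description and no test of enrichment. A match describes letters and not a bound site, and no binding was measured.

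*F3* (chromosome 3, positions 121516610 to 121528820, all gene positions being in GRCm39) is the trigger of clotting. Its choroidal level was 1121 to 3336 normalized counts with a median of 1465, and its retinal level 125 to 243 with a median of 165. All 20 mice had more in choroid, by 3.07 ± 0.10 on the log2 scale (SE, adjusted p = 7.85e-26 in limma), the smallest difference among the 9 genes without overlap. The highest choroid was that of mouse 13 (control + PLX), and the next, of mouse 5 (control – PLX), held 2461.

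*Tfpi* (chromosome 2, positions 84263195 to 84307164) encodes the inhibitor of tissue factor and factor VII. Its choroidal level was 966 to 1442 normalized counts with a median of 1146, and its retinal level 16.2 to 139 with a median of 40.5. For its size this was the smallest spread between the choroids among the 10 genes, with a mean of 1159 ± 110.2. The ratio of the tissue means was 25.1, against 8.62 for *F3*.

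The factors of the prothrombin-cutting complex were the lowest of the 10 per length in choroid. *F10* (chromosome 8, positions 13087293 to 13106676), the protease, had 67.0 to 279 normalized counts in choroid, median 120.3, and 0 to 28.2 in retina, where 2 of the 20 libraries were at 0. Its ratio of means was 22.8. *F5* (chromosome 1, positions 163979289 to 164047846), its cofactor, had 38.1 to 177 in choroid, median 58.1, and 20 to 171 in retina, median 39.3. It was higher in the choroid of 16 mice and in the retina of 4, with a log2 difference of 0.54 ± 0.21 (adjusted p = 0.0185). That call was lost without mouse 3, whose choroid was the highest, at an adjusted p of 0.0607, and with upper quartile scaling, at 0.0789.

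Both genes of the protein C pathway were much higher in choroid. *Thbd* (chromosome 2, positions 148216045 to 148250201) reached 2297 to 4334 normalized counts there, median 2656, and 50.4 to 125 in retina, median 81.3. Its choroids fell into a lower and a higher set, since mice 1, 10, 11, 12 and 17 held 3639.7 to 4334 and the other 15 held 2297 to 3166. Those 5 mice came from all 4 groups. *Procr* (chromosome 2, positions 155593031 to 155597397) had 389 to 747 in choroid, median 487, and 2.55 to 57.2 in retina, median 7.74. The ratios of means were 36.5 for *Thbd* and 44.7 for *Procr*.

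The 3 members that serve plasmin formation were higher in choroid by very different ratios. *Plat* (chromosome 8, positions 23247709 to 23272871), the tissue-type activator, had 2253 to 4472 normalized counts in choroid, median 3411, and 245 to 535 in retina, median 365, with a ratio of means of 9.15. *Plau* (chromosome 14, positions 20886722 to 20893453), the urokinase-type activator, had 397 to 1608 in choroid and 1.03 to 49.6 in retina, with a ratio of 54.6. *Plaur* (chromosome 7, positions 24161875 to 24175394), the urokinase receptor, had 308 to 729.9 in choroid and 0 to 15.4 in retina, with a ratio of 67.5. The ratios of urokinase and its receptor were thus the larger ones, a difference between genes for which no test was made.

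*Fgl2* (chromosome 5, positions 21577640 to 21597055), which encodes a fibrinogen-like protein able to cut prothrombin at the surface of macrophages and endothelium, had the largest ratio of the 10. It held 1103 to 2326 normalized counts in choroid, median 1698, and 2.63 to 47.0 in retina, median 15.3, a ratio of means of 93.5.

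PLX changed 1 of the 10 genes, and the same one in both tissues: *Plau* fell. In choroid 5.06% of the 23619 genes tested were lower with PLX, and in retina 1.08% of 23243, so the 1 member of 10 is a result about *Plau* and not about the group. The median log2 difference of the 10 was -0.017 in choroid against 0.001 over all genes, and -0.54 in retina against 0.003.

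In the choroid of control – PLX mice *Plau* had 1391, 1332, 1447, 1608 and 1474 normalized counts in mice 1 to 5. In *Tgfbr2*ΔEC – PLX it had 1456, 1478, 1482, 1194 and 926. With PLX it had 397, 497, 688, 508 and 428 in controls and 529.7, 651, 546, 436 and 527 in *Tgfbr2*ΔEC mice. Every choroid without PLX thus lay above every choroid with it, as for 1.75% of the genes tested. The means were 1379 ± 193 and 521 ± 92.8 (SD, n = 10 each), a log2 difference of -1.41 ± 0.10 (SE, limma adjusted p = 3.45e-09), or 2.65-fold lower with PLX.

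The retinas held little *Plau*, yet it fell there as well. Without PLX the values were 44.4, 49.6, 45.7, 30.4 and 26.2 in controls and 25.8, 42.3, 15.9, 8.61 and 9.91 in *Tgfbr2*ΔEC mice. With PLX they were 5.59, 9.49, 4.44, 3.10 and 5.56 in controls and 5.54, 2.10, 1.03, 6.58 and 5.48 in *Tgfbr2*ΔEC mice, some of them below 3 reads. Diets did not overlap within a genotype, and over both genotypes only the retina of mouse 9 without PLX lay within the range with PLX. The log2 difference was -2.31 ± 0.31 (SE, limma adjusted p = 7.64e-05).

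Within each genotype the decrease was seen alone. It was -1.55 on the log2 scale in control choroids, -1.27 in *Tgfbr2*ΔEC choroids, -2.63 in control retinas and -1.997 in *Tgfbr2*ΔEC retinas. Each had p = 0.00794 in an exact two-sided permutation test, the smallest that 5 mice against 5 can give, and an adjusted p of 0.159 over the 80 such tests of the 10 genes. Beside this, the summed markers of mononuclear phagocytes fell from 61054 to 74143 normalized counts without PLX to 17235 to 29752 with it in choroid, and from 2721 to 6497 to 433 to 612 in retina. None of the 16 markers was at 0 over the 20 mice of a tissue, and *Mrc1* was at 0 in the control + PLX retinas. Fewer cells and less RNA per cell cannot be told apart in whole tissue, and the part of these cells in the decrease was not tested. Platelet markers were lower with PLX in choroid too, with sums of 476 to 1121 without PLX and 91.1 to 259 with it (mean log2 lower by 0.97, adjusted p = 0.000756 in the exact permutation test). Of the 5 tested there only *Pf4* was called. In retina they went both ways. The mean log2 was lower by 0.33 (adjusted p = 0.0479 in the exact permutation test), with *Pf4*, *Ppbp* and *Gp9* at 0 in all retinas with PLX. The sums were not lower, at 22.8 to 91.9 without PLX and 28 to 101 with it. Group means of the sum were 54.1 and 52.9 without PLX and 63.9 and 58.4 with it. The 3 markers tested there had a median log2 difference of 0.335, with 1 called lower. The part of platelets was not tested either.

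**Figure D3:**
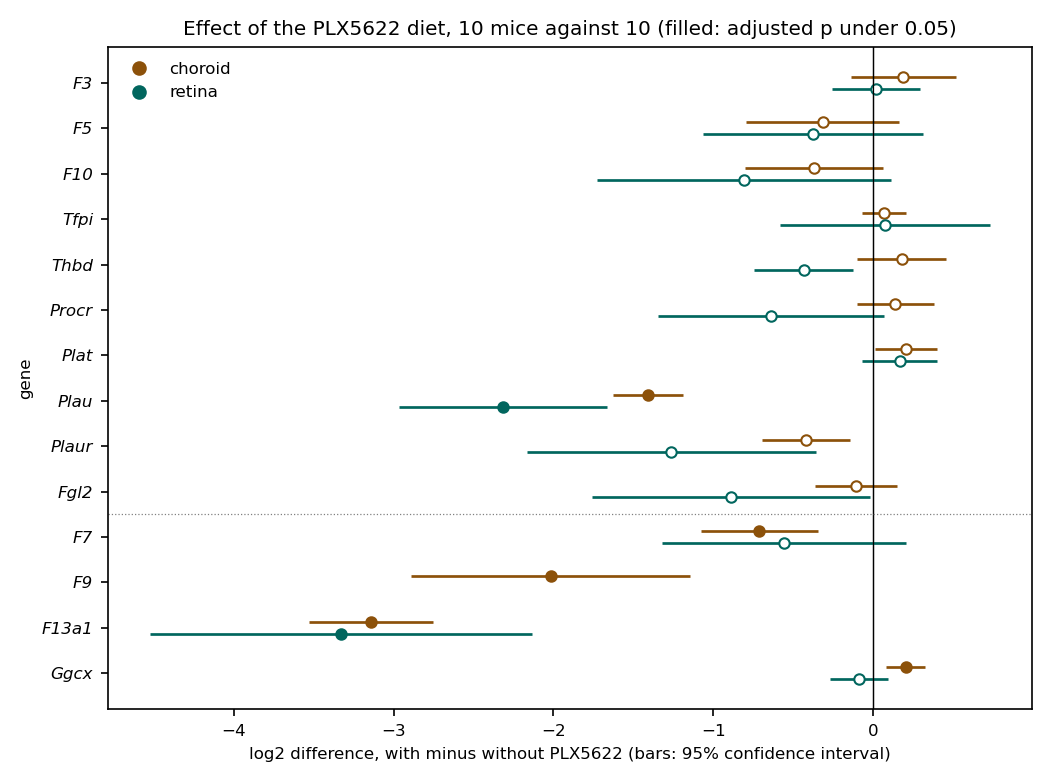
Log2 difference with minus without PLX5622 for the 10 genes, and below the dotted line for 4 other pathway genes called in choroid, with 95% confidence intervals in choroid and retina; filled points have an adjusted p under 0.05. Plau is the one member called, at -1.41 in choroid and -2.31 in retina, and F9 was not tested in retina. F9 passed the filter on low values only through the choroids without PLX, so its choroid point is a description.

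*Plaur* went the same way without passing the test. In choroid it had 429.8 to 729.9 normalized counts without PLX and 308 to 623 with it, with overlap, and the log2 difference was -0.42 ± 0.13 (adjusted p = 0.0595). The adjusted p ranged from 0.0151 to 0.118 over the alternatives, and without mouse 4, 10, 13 or 16 the gene passed, at 0.0431, 0.0478, 0.0151 and 0.0187. In retina the difference was -1.26 ± 0.43 (adjusted p = 0.358) on values of 0 to 15.4.

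None of the other 8 members was called in choroid. For *Tfpi* in choroid the 95% interval of the ratio with PLX to without, the narrowest of the 10 on the log scale, ran from 0.955 to 1.16. For *F3* it ran from 0.91 to 1.43, for *Thbd* from 0.935 to 1.38, for *Procr* from 0.932 to 1.3, for *Plat* from 1.01 to 1.32 and for *Fgl2* from 0.778 to 1.11. *F5* and *F10*, the low genes, had the widest on the log scale, from 0.577 to 1.12 and from 0.574 to 1.04. Markers of endothelium, mural cells and fibroblasts moved as well. In choroid 6 of 10 endothelial markers were higher with PLX and their mean log2 was higher by 0.24 (exact permutation p = 0.000157, adjusted p = 0.00283 over 72 tests of marker lists), with sums of 24538 to 29873 normalized counts without PLX and 27127 to 35328 with it and no marker at 0. The mean log2 was higher by 0.30 for 7 mural markers, of which 2 were called, and by 0.24 for 5 fibroblast markers, of which 1 was (exact permutation, adjusted p = 0.0102 for each). The part of these cells in the ratios was not tested.

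In retina 4 of the 10 had an unadjusted p under 0.05 for PLX, *Plau*, *Plaur*, *Thbd* and *Fgl2*, where 6.28% of all genes did. In choroid 3 did, *Plau*, *Plaur* and *Plat*, where 19.3% of all genes did. In retina *Fgl2* had 3.18 to 47.0 normalized counts without PLX and 2.63 to 29.2 with it, and its log2 difference was -0.89 ± 0.42 (limma adjusted p = 0.77). *Thbd* had 69.0 to 125 normalized counts without PLX and 50.4 to 93.1 with it, a log2 difference of -0.43 ± 0.15 (limma adjusted p = 0.356). Its choroids went the other way, at 0.18 ± 0.13. The difference between the tissues in the effect of PLX was 0.62 ± 0.19 for *Thbd* (adjusted p = 0.132) and 0.91 ± 0.32 for *Plau* (adjusted p = 0.22). None of the 10 passed this test, in which 1.37% of all genes did, and 3 had an unadjusted p under 0.05, *Procr* being the other, a level that 10.2% of all genes reached.

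Deletion of endothelial *Tgfbr2* changed none of the 10 genes in limma. Over the whole table the calls were 0.00423% in choroid without PLX, 0.00423% in choroid with PLX, and 0% in either comparison of the retina, where 758 and 629 genes had an unadjusted p under 0.05, against 2184 and 889 in choroid. The first of these shares is 1 gene and is not stable, since 303 genes were called in the 10 mice without PLX alone and 411 without mouse 15. No interaction of genotype and PLX was called, with 0% of all genes in choroid and 0% in retina, although 1552 and 567 genes had an unadjusted p under 0.05. At that level there were 0 members in both comparisons of the choroid and in its interaction, 2 in each comparison of the retina and 1 in the interaction there.

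Intervals were narrower in choroid than in retina for most of the 10, though not for *F3*. Without PLX in choroid the 95% interval of the ratio of *Tgfbr2*ΔEC to control ran from 0.877 to 1.15 for *Tfpi*, from 0.755 to 1.3 for *Thbd*, from 0.794 to 1.27 for *Procr*, from 0.732 to 1.07 for *Plat* and from 0.59 to 1.12 for *F3*. With PLX it ran from 0.926 to 1.21 for *Tfpi*, from 0.837 to 1.22 for *Plat* and from 0.646 to 1.23 for *F3*. It was widest on the log scale for *F5* and *F10*. Without PLX these 2 ran from 0.577 to 1.47 and from 0.635 to 1.48. With PLX they ran from 0.594 to 1.52 and from 0.567 to 1.32. Photoreceptor markers differed between the same choroids without passing the adjustment, and none of the 10 was called. Their sum was 48019 to 137413 in the *Tgfbr2*ΔEC – PLX choroids and 3935 to 27715 in control – PLX, without overlap (exact permutation p = 0.00794 on their mean log2, adjusted p = 0.0635). With PLX the difference of that mean between genotypes was 0.09 (exact permutation p = 0.937). With the photoreceptor score as a covariate the number of members called for genotype was still 0. Sex was not balanced between the groups. By sex-linked genes 2 of 5 mice were female in control – PLX and 3 of 5 in *Tgfbr2*ΔEC – PLX. With PLX they were 2 of 5 in controls and 4 of 5 in *Tgfbr2*ΔEC mice. The main fit held no term for sex, and a sex score as covariate changed no call of a member.

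In retina the 2 members with an unadjusted p under 0.05 without PLX were *Procr* and *Plau*. *Procr* had 57.2, 13.8, 18.8, 10.2 and 21.3 normalized counts in control – PLX and 14.5, 8.08, 4.73, 2.55 and 4.44 in *Tgfbr2*ΔEC – PLX. Only mouse 6 of the *Tgfbr2*ΔEC – PLX group reached the range of the controls. The log2 difference was -1.62 ± 0.48 (limma adjusted p = 0.985). For *Plau*, whose values are given above, it was -1.10 ± 0.44 (adjusted p = 0.985). With PLX they were *Plat* at -0.40 ± 0.16 and *F10* at -1.32 ± 0.62 (both adjusted p = 1), the latter with 2 of 5 *Tgfbr2*ΔEC + PLX retinas at 0. The difference of *F10* ranged from -1.706 to -0.546 over the alternatives other than left-out mice. Melanocyte markers differed between the same retinas with PLX, with sums of 101 to 337 for the controls against 290.4 to 517 after the deletion and a mean log2 higher by 0.95 in the latter (exact permutation p = 0.00794, adjusted p = 0.0635). None of the 5 was called or at 0 in either group, and their part was not tested.

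**Figure D4:**
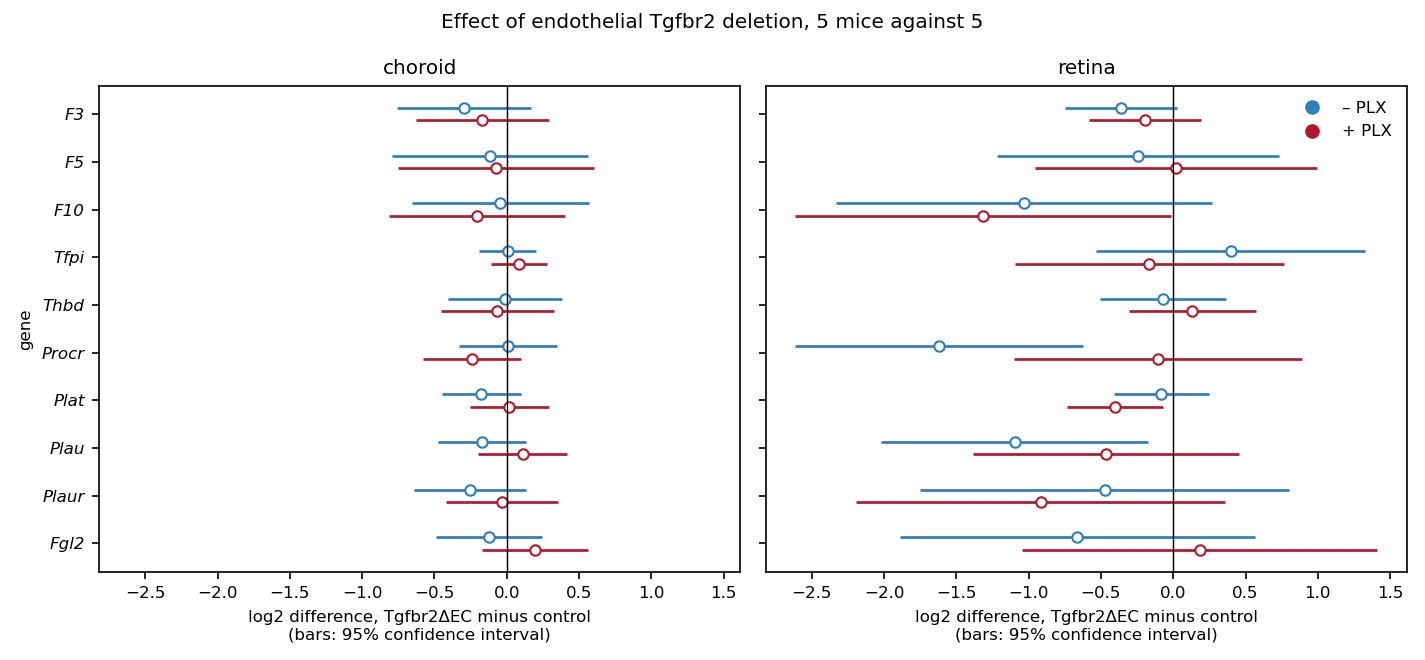
Log2 difference of Tgfbr2ΔEC minus control for the 10 genes in choroid (left) and retina (right), without and with PLX, 5 mice against 5, with 95% confidence intervals; open points have an adjusted p above 0.05. No point is filled, and the intervals are narrower in choroid than in retina for most genes.

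A further 48 genes of clotting and fibrinolysis were followed as a fixed list, and 37 of them had enough signal to be tested between the tissues. Of these, 26 were higher and 8 lower in choroid, where 40.8% of all genes were higher and 41.1% lower. Some of the 37 passed the filter on low values only through the tissue where they were high, so their direction is a description. Among them were *F2*, with means of 0.44 in choroid and 6.17 in retina, *Plg* (0.576 and 2.56) and *F9* (3.5 and 0.749). All 9 partners and inhibitors of plasminogen activation were tested, and 8 were higher in choroid. *Serpine2*, an inhibitor of thrombin and urokinase, held 11302 to 20526 normalized counts in the choroids against 177 to 416 in the retinas. The ratio of means was 10.2 for *Lrp1*, the receptor that clears such complexes, 14.0 for *Vkorc1*, an enzyme of the vitamin K cycle, and 6.76 for *F2r*, the thrombin receptor.

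Fibrinogen, prothrombin and plasminogen, on which these proteins act, were at or near the limit of detection as RNA in choroid, and prothrombin alone was above 0 in every retina. They belong to the list of 18 plasma factors of the liver, of which 9 could be tested. *Fga*, for the fibrinogen alpha chain, was above 0 in 3 of 20 choroids, with 1.01, 1.02 and 3.34 normalized counts in mice 7, 13 and 16, and at 0 in all 20 retinas. *Fgb* was above 0 in 1 choroid, at 1.06, and *Fgg* in no choroid and in 8 retinas, with 4.71 as the highest. These fibrinogen values are near or below the level of 3 reads in a library and thus at the limit of this depth. *F2*, prothrombin, had 0 to 2.25 in choroid and 1.60 to 13.4 in retina, and *Plg*, plasminogen, 0 to 5.38 and 0 to 7.71. Beside these, the summed level of 7 hepatocyte markers was 111 to 1519 in choroid and 0.81 to 23.2 in retina, carried in choroid by *Hp* (78.5 to 1092) and *Cyp2e1* (24.2 to 449.6). Albumin (*Alb*) had 0 to 18.9 in choroid and was at 0 in 5 choroids and 15 retinas. Protein brought in by the blood was not measured.

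Of the genes lower in choroid *Serpini1*, the neuronal inhibitor of tissue-type activator, had 205 to 560.1 normalized counts there and 756 to 1689 in retina, and *Klkb1*, plasma prekallikrein, 3.59 to 50.4 and 108 to 290.4. *F11*, which also belongs to the contact pathway, had 0 to 15.6 in choroid and 8.38 to 76.8 in retina.

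**Figure D5:**
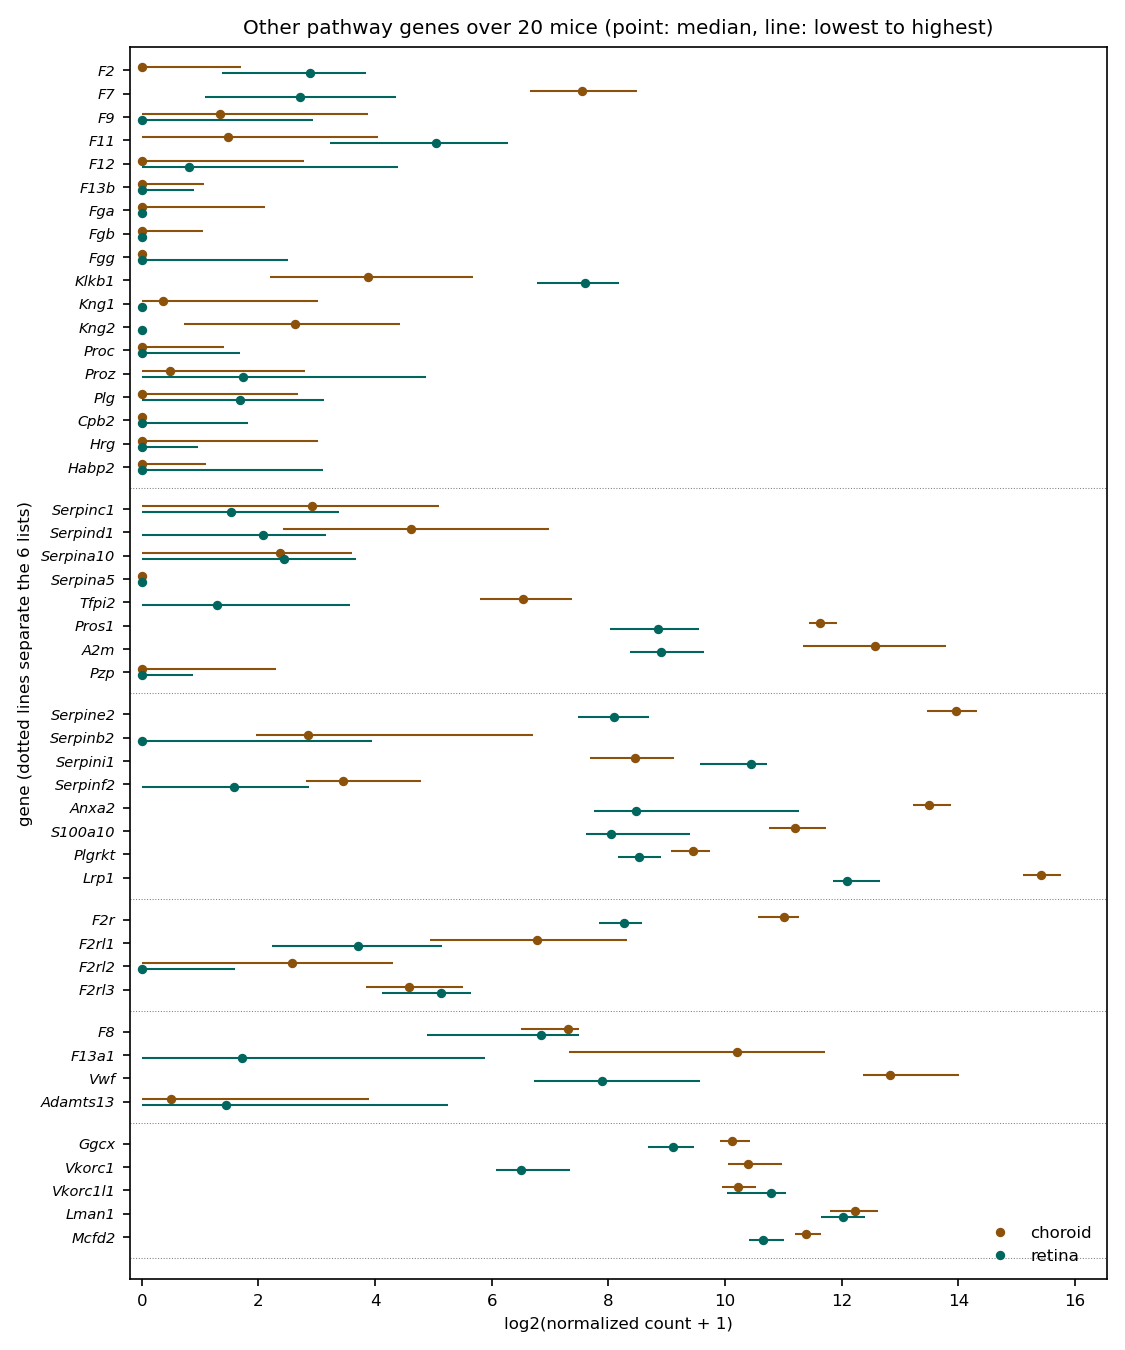
Normalized counts of other clotting and fibrinolysis genes on a log2(value + 1) axis in choroid and retina, with points at medians and lines from the lowest to the highest of 20 mice; dotted lines separate the 6 lists, from the top plasma factors of the liver, clotting inhibitors, partners and inhibitors of plasminogen activation, thrombin and protease receptors, factors made outside hepatocytes, and the vitamin K cycle with factor secretion. The fibrinogen chains lie at or near 0 in both tissues, and F13a1 lies far higher in choroid.

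With PLX, *F13a1* and *F7* fell and *Ggcx* rose among the 35 listed genes tested in choroid, where 5.06% of all genes were lower and 2.07% higher. These falls stand beside the lower phagocyte and platelet markers given above for choroid. *F13a1*, the factor XIII A chain that cross-links fibrin and is also made by macrophages, had 1773 to 3345 normalized counts without PLX and 159 to 585 with it. The diets did not overlap, and the log2 difference was -3.14 ± 0.19 (limma adjusted p = 1.98e-10). *F7*, the partner of tissue factor, had 141 to 359.6 without PLX and 99.5 to 257 with it (-0.71 ± 0.18, adjusted p = 0.0136). *F9* had 0 to 13.7 and 0 to 2.22 (-2.02 ± 0.42, adjusted p = 0.00313). It passed the filter on low values only through the choroids without PLX, which had a mean of 6.36 against 0.638, so this is a description and it is not counted among the genes that fell. *Ggcx*, the enzyme that carboxylates these factors, had 960.5 to 1149 and 1046 to 1384 (0.21 ± 0.06, adjusted p = 0.0382). In retina *F13a1* alone of 34 fell, where 1.08% of all genes did, from 0 to 58.3 normalized counts without PLX to 0 to 4.98 with it (-3.33 ± 0.58, adjusted p = 0.00161). Within genotypes the log2 difference there was -4.37 in controls, without overlap (exact permutation p = 0.00794, the smallest possible), and -2.29 in *Tgfbr2*ΔEC mice, with overlap (exact permutation p = 0.119), where mice 7 and 10 held 1.65 and 0 without PLX. The interaction was 2.08 ± 1.15 (limma adjusted p = 1). No listed gene was called for genotype or for the interaction in limma in either tissue. At an unadjusted p under 0.05 there were 6 for genotype without PLX and 0 with PLX in choroid, 4 and 0 in retina, and 3 and 1 for the interactions. Of all genes, 9.25% and 3.76% reached that level in choroid, 3.26% and 2.71% in retina, and 6.57% and 2.44% for the interactions.

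The genes most like each member over the 20 choroids were sought among 17597 genes, and Pearson's r is given as a description, since the mice share groups and diet. *Plau* went with *Ms4a4a* and *Itgam* (r = 0.99 and 0.98), the latter an integrin chain of myeloid cells, which carry the same difference between diets. *Plaur* went with *Cdca8* and *Asf1b* (0.87 and 0.86), genes of cell division and chromatin assembly. *F3* went with the adenosine receptor gene *Adora2b* and with *Tmem237* (0.90 and 0.86). *Tfpi* went with *Gjb2*, a gap junction gene, and *Cluap1* (0.86 and 0.83), and *Thbd* with *Crispld2* and *Edn3* (0.87 and 0.85), the latter for endothelin 3. *Procr* went with *Tspan17* and *Atp8b3* (0.85 and 0.81), *Plat* with *Pamr1* and *Msc* (0.85 and 0.83), *F10* with *Sf3b4* and *Alyref* (0.81 and 0.80), *Fgl2* with *Prtn3* and *Nmi* (0.81 and 0.80) and *F5* with *Coro1c* and *Arl6ip6* (0.77 and 0.76). Between members the highest values were 0.75 for *Tfpi* with *Thbd* and 0.69 for *Plau* with *Plaur*. The best match of *F3* among the members was *Plaur* at 0.26, so the trigger of clotting did not follow any of the other 9 closely from mouse to mouse.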

How the data were processed

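Poly(A) RNA of choroid and retina was sequenced with stranded libraries. The authors quantified reads with Salmon 1.10.1 against GRCm39 (FastQC 0.11.5 for quality), imported them with tximport and scaled them with DESeq2 1.36.0, and deposited the resulting signal per gene, called normalized counts here. The values are not whole numbers: 44.8% to 71.5% of the low values of a library lay within 0.1 of a whole read, so reads were not recovered, depths are approximate and no count test was run. The median ratio over 15800 genes was 1.0082 in all 40 libraries, so both tissues had been scaled together. The authors' covariates (sex and a neuronal percentage) are not in the labels and were replaced by scores as alternatives.

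Identifiers were matched to GENCODE M39, in which 53700 of 54307 were found. limma 3.58.1 (R 4.3.3, trend) was fitted to log2(value + 1) of every gene whose mean reached 1, per tissue with 4 groups and no covariate, and over both tissues without a block, and an adjusted p of at most 0.05 was called. Fold changes are on that scale and understate changes of low genes. Exact permutation tests used mice. The limma fit was tested on simulated choroid values for the PLX comparison alone. Genotype comparisons and low retinal genes were not simulated. Nothing says that a library pools mice, and p-values measure the spread between mice.

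The genes named besides the members were the fibrinogen chains, *F2*, *Plg* and *F13a1*, up to 4 pathway genes in each direction with the lowest p per comparison, defining markers, and the 2 genes most like each member. *Alb* is a defining marker. The members and lists were chosen with earlier results of these data known. One listed gene is counted in its list but not reported here. Marker lists held 88 genes, of which 87 were matched.

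The tissues of a mouse share its number. Sex-linked genes gave the same sex in both tissues of 20 of 20 mice. Deviations from the group means correlated between the tissues of a mouse at r = -0.112 to 0.178 (median 0.068). Alternatives were other pseudocounts (0.5 and 5), filters, scalings, covariates, a replicate block and leaving out each mouse. Promoters are from RefSeq, build GRCm38.p6. The motifs were chosen after the sequences were seen. Other steps used scipy 1.17.1, pandas 2.3.3, numpy 2.4.6 and Python 3.11.15.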

Additional observations from a re-analysis of the deposited data

Results flagged for a closer look

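In 9 of the 80 sets of 5 mice examined (10 genes, 2 tissues, 4 groups) the highest mouse stood apart from the other 4, with a gap over 0.71 of the range of its set. About 4 such sets would be given by chance if values were normally distributed. The rule was applied to normalized counts without a log, for which this was not checked. In choroid these were *F3* in mouse 13 of control + PLX (3336 normalized counts, a gap of 0.872 of the range), *Thbd* in mouse 1 of control – PLX (3855, 0.783) and in mouse 10 of *Tgfbr2*ΔEC – PLX (3639.7, 0.727), and *Tfpi* in the same mouse 10 (1243, 0.718). In retina they were *Plaur* in mouse 12 of control + PLX (14.6, 0.854), *Tfpi* in mouse 8 of *Tgfbr2*ΔEC – PLX (139, 0.782), *Procr* in mouse 1 of control – PLX (57.2, 0.763), *F10* in the same mouse 1 (28.2, 0.716) and *F3* in mouse 17 of *Tgfbr2*ΔEC + PLX (215, 0.751).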

How the results depend on the processing

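Of 3012 recomputed differences of single members, 3004 stayed on their side of the threshold, 6 passed only in an alternative and 2 were lost. No called difference changed its sign, while 114 values of differences that were not called did. The number of members called for PLX in choroid was 1, and 2 among genes with a mean of at least 10 and 2 with the photoreceptor score as covariate, the added gene being *Plaur*; over the left-out mice it ranged from 1 to 2. For choroid against retina it was 9 instead of 10 with upper quartile scaling, which moves the median of all genes by -0.142, and without mouse 3, in each case because of *F5*. In a paired fit with the mouse as replicate block, 10 members were called between the tissues, 0 for the difference in the effect of PLX, and 19855 and 268 genes in all, against 19930 and 332; the block changed no call of a member. Of the mice, 13 of 20 correlated best with their own number within their group.

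Counts over all genes were less stable. For PLX in retina 154 genes were called among those with a mean of at least 10, against 254, and leaving out a mouse gave 206 to 266. For genotype in choroid without PLX the count was 1, but 303 in the 10 mice alone, 0 among genes with a mean of at least 10, and 1 to 411 over the left-out mice. For genotype in choroid with PLX it was 0 or 1 throughout, in retina with PLX 0 to 1, and for the PLX difference between tissues 278 to 620 over the left-out mice and 268 to 400 otherwise, against 332. The highest counts, 411 and 620, were without mouse 15. Listed pathway genes called for PLX in choroid numbered 3 to 5 (4 with *F9* included), an alternative set added after the data were seen. The log2 difference in the effect of PLX on *Plau* between the tissues ranged from 0.31 to 1.03, since the pseudocount weighs on its low retinal values. With the exon union as gene length the choroidal ranks by median were the same, but by mean *F3* (503 per kb) passed *Plat* (496) and *Plau* (370) passed *Fgl2* (363); in retina both pairs exchanged by median. Depth limits the retinal values of *F10*, *Plaur*, *Procr* and *Plau* and the fibrinogen genes.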
